A study of Mus musculus with 6 samples.

Results

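The genes described here were 10 markers of astrocytes and radial glia, namely Gfap, S100b, Aqp4, Slc1a2, Slc1a3, Aldh1l1, Fabp7, Gja1, Glul and Sox9. They were taken by name from the 22048 genes of the deposited table, and all 10 were found and passed the filter on low counts. RNA had been sequenced from neurospheres, floating clusters of neural stem/progenitor cells (NSC/NPCs), grown from the hypothalami of male C57BL/6 fetuses. Pregnant mice aged 8 weeks were gavaged between E5.5 and E11.5 with estradiol valerate, an estradiol ester, at 100 μg/kg/d in the high estradiol (HE) group or with corn oil alone in the control (NC) group. Hypothalami were dissociated at E14.5 in both groups and cultured in the same medium with B27, EGF at 10 ng/mL and bFGF at 10 ng/mL. There were 3 NC and 3 HE samples of first-passage cells, each pooled from 2 mice. The treatment field of the NC samples reads untreated, whereas the protocol gives them the solvent. Sequencing gave between 16078675 and 19137059 reads counted on genes per sample.

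Radial glia are the elongated progenitors that line the embryonic ventricles, and they give rise to neurons first and to astrocytes later. In the hypothalamus some of them persist around the third ventricle as tanycytes. Astrocytes take up glutamate, couple to each other through gap junctions and contact blood vessels with their end-feet. Radial glia and astrocytes share many genes, so most of the markers described here cannot by themselves tell one cell type from the other. Neural progenitors grown as neurospheres in EGF and bFGF are likewise known to carry astrocyte genes. The samples are bulk RNA, in which fewer cells of a type and less RNA per cell cannot be told apart.

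HE3 stood apart from the other samples. Over all tested genes its log2 levels correlated with those of the other 5 samples at a Pearson r of 0.940 to 0.971, and the other 5 correlated with each other at 0.971 to 0.990. Fold changes that moved by more than 1.5 times without HE3 are therefore given with and without it. Levels of 3 markers of radial glia and neural stem cells are given as a description. Like most of the genes described here, they cannot by themselves tell progenitors from astrocytes. Vim, an intermediate filament of radial glia, was at 1234 to 1803 RPKM (reads normalized to gene length and to the counted reads of the sample) over the 6 samples, Nes, the filament nestin, at 154 to 247 RPKM, and Sox2, a transcription factor of neural stem cells, at 97.3 to 209 RPKM. Rax, a transcription factor that defines hypothalamic tanycytes, was near 0, at 0.0313 to 0.251 RPKM, and did not pass the filter.

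Levels of the 10 genes spanned more than 2 orders of magnitude. The order of their means over the 6 samples was Fabp7 at 1357 RPKM, Aldh1l1 at 558, Gfap at 539, Slc1a3 at 174, Glul at 114, Gja1 at 58.6, Aqp4 at 29.3, Sox9 at 11.1, Slc1a2 at 10.6 and S100b at 9.82 RPKM. Fabp7 was higher in mean level than 99.8% of the 13952 tested genes, and Gfap and Aldh1l1 each than 99.3%. Some neighbours in this order were not separated. Aldh1l1 was above Gfap in only 2 of 6 samples, Sox9 was above Slc1a2 in 3 of 6, and Slc1a2 was above S100b in 3 of 6. Fabp7 was above Aldh1l1, Slc1a3 above Glul, Glul above Gja1 and Aqp4 above Sox9 in 6 of 6 samples each, with ranges that did not overlap, and Gfap was above Slc1a3 in every sample as well, although the 2 ranges overlap through HE3. Together the 10 genes took 0.907% to 1.01% of all counted reads in the NC samples and 0.731% to 0.908% in the HE samples. Their summed RPKM, which accounts for gene length, did not follow this order. It was 2774, 2656 and 2898 in NC1 to NC3 and 2936, 2422 and 3481 in HE1 to HE3.

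**Figure D1:**
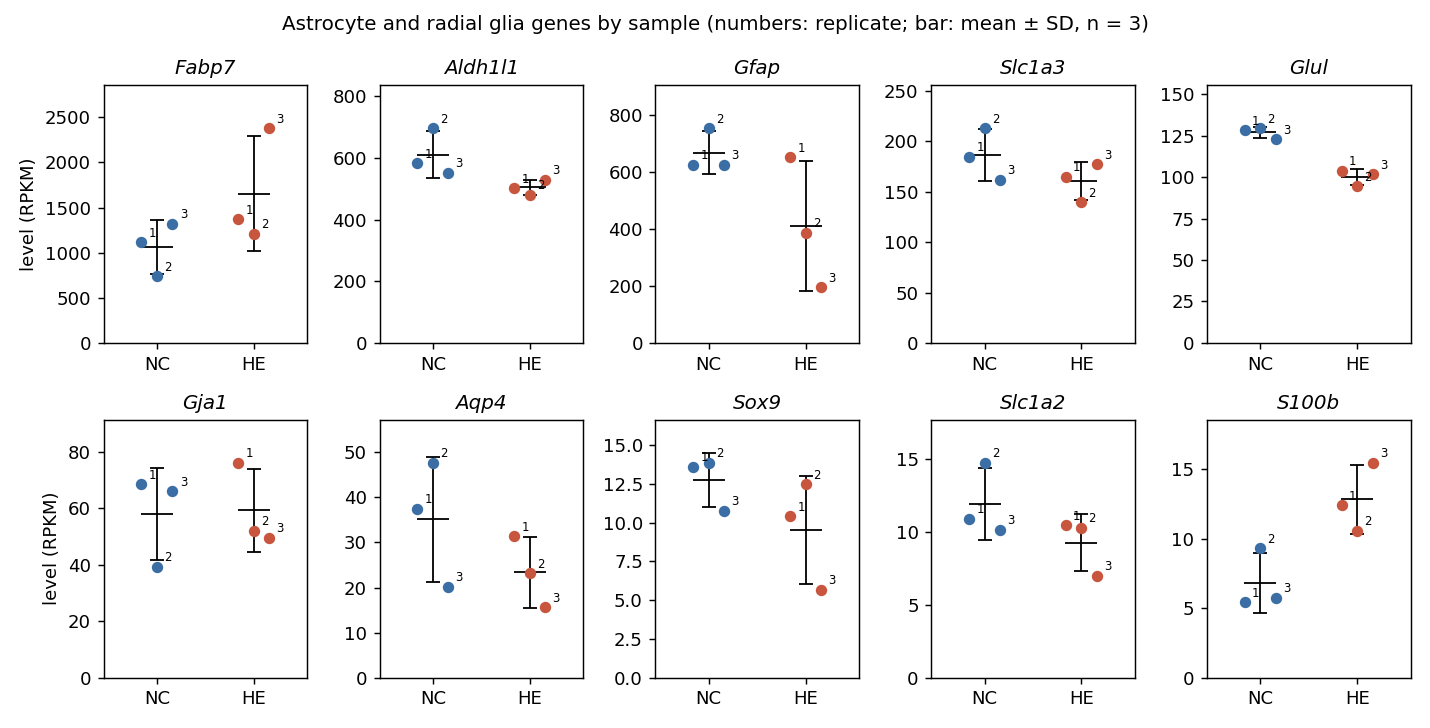
Level in RPKM on a linear axis from 0 for each of the 10 genes, with 1 panel per gene, 1 point per sample (blue NC, red HE, replicate number beside it) and bars for the mean ± SD of 3 samples. The HE points of S100b lie above all NC points and those of Glul and Aldh1l1 below them, Gfap reaches down to 195 RPKM in HE3, and Fabp7 reaches up to 2383 RPKM in the same sample.

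The comparison of HE with NC asked whether these glial genes differed after prenatal estradiol. Differences were tested with limma on log2(RPKM + 0.1) across all 13952 tested genes, so fold changes are on that scale and SE is the standard error of a log2 fold change. Benjamini-Hochberg adjustment covered all these genes. None of the 10 genes passed an absolute log2 fold change of 1 with an adjusted p under 0.05, and the background was 0% of all tested genes. This 0% belongs to the test used here. The paper did report differentially expressed mRNAs in both directions at the same cutoffs with another test, DESeq2. The adjusted p-values of the 10 genes in limma ran from 0.195 to 0.922. At an unadjusted p under 0.05 there were 2 of the 10, S100b higher and Glul lower in HE, where 20.5% of all tested genes passed (2858 genes, 1211 higher and 1647 lower). In 3 of the 10, S100b, Glul and Aldh1l1, the HE and NC values did not overlap, against 32.7% of all tested genes. Log2 fold changes were below 0 in 7 of the 10, against 56.2% of all tested genes, with a median of -0.31 over the 10 and of -0.06 over all tested genes. The counts at an unadjusted p under 0.05 and without overlap were thus near those of the whole table.

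Fabp7 and Sox9 are genes of the radial glia and progenitor state. Fabp7, on chromosome 10 from 57784923 to 57788450 (GRCm38.p6, as are all coordinates here), encodes brain lipid-binding protein, a fatty acid carrier that is a classic marker of radial glia. It was at 1118, 736 and 1323 RPKM in NC1, NC2 and NC3 and at 1373, 1211 and 2383 RPKM in HE1, HE2 and HE3. HE3 was by far the highest and NC2 the lowest, and HE2 lay below NC3, so that the groups overlapped. The mean was 1059 ± 298 RPKM for NC and 1656 ± 635 RPKM for HE (SD, n = 3 samples each). The difference (log2 fold change) was 0.62 (SE 0.33, 95% interval -0.16 to 1.40, as for all intervals here). Without HE3 it was 0.33. Sox9, on chromosome 11 from 112782210 to 112787757, encodes a transcription factor that acts in neural stem cells and in the start of gliogenesis. It was at 13.6, 13.9 and 10.8 RPKM in NC1 to NC3 and at 10.4, 12.5 and 5.67 RPKM in HE1 to HE3. The groups overlapped and HE3 was the lowest. HE minus NC came to a log2 fold change of -0.48 (SE 0.29, interval -1.15 to 0.19), and -0.15 without HE3.

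Gfap, on chromosome 11 from 102887336 to 102897200, encodes the intermediate filament of astrocytes. NC1 to NC3 had 624, 754 and 624 RPKM of it, and HE1 to HE3 had 650, 387 and 195 RPKM. HE1 was at the level of NC, HE2 was below all NC samples and HE3 was the lowest of all 6. The NC mean was 667 ± 74.8 RPKM and the HE mean 411 ± 229 RPKM (SD, n = 3 each), so that the spread within HE was about as large as the difference. The resulting log2 fold change was -0.86, the lowest of the 10 (SE 0.40, interval -1.80 to 0.08), and its adjusted p was 0.264 in limma. Without HE3 it was -0.41, and without HE1 it was -1.27 with an adjusted p of 0.164. S100b, on chromosome 10 from 76253836 to 76261319, encodes a calcium-binding protein of astrocytes that oligodendrocyte progenitors also carry. NC1 to NC3 had 5.42, 9.30 and 5.76 RPKM, and HE1 to HE3 had 12.4, 10.6 and 15.5 RPKM. Every HE value was above every NC value. The mean was 6.83 ± 2.15 RPKM for NC and 12.8 ± 2.47 RPKM for HE (SD, n = 3 each). The log2 fold change of 0.92 (SE 0.24, interval 0.36 to 1.49) was the largest upward difference of the 10, and its adjusted p was 0.195 in limma. It rested on 151 to 264 reads per NC sample and 299 to 369 reads per HE sample, the fewest of the 10 genes. Without HE3 the log2 fold change of S100b was 0.78. Aldh1l1, on chromosome 6 from 90550768 to 90599171, encodes a folate enzyme that is widely used to label astrocytes. It was at 583, 698 and 553 RPKM in NC and at 502, 482 and 530 RPKM in HE, all HE values being below all NC values. The gap between the highest HE and the lowest NC sample was small, and the log2 fold change was -0.27 (SE 0.15, interval -0.63 to 0.09). Its groups overlapped once the samples were scaled by the median of ratios instead of the total.

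The glutamate genes were lower in mean level in HE. Slc1a2 and Slc1a3 encode the 2 astrocytic glutamate transporters, GLT-1 and GLAST, and Glul encodes glutamine synthetase, which turns the glutamate taken up into glutamine. Glul, on chromosome 1 from 153899929 to 153909723, had the smallest SE of the 10 genes, with NC values of 128, 130 and 123 RPKM and HE values of 104, 94.5 and 102 RPKM. No HE value reached the NC range. The mean was 127 ± 3.55 RPKM for NC and 100.1 ± 4.96 RPKM for HE (SD, n = 3 each). Compared with NC, the log2 fold change was -0.34 (SE 0.10, interval -0.58 to -0.11), and its adjusted p was 0.195 in limma. Without HE3 the log2 fold change of Glul was -0.36. Slc1a3, on chromosome 15 from 8634124 to 8710807 and also a radial glia marker, was at 185, 213 and 162 RPKM in NC and at 165, 140 and 177 RPKM in HE. The groups overlapped, with a log2 fold change of -0.21 (SE 0.15, interval -0.57 to 0.14). Slc1a2, on chromosome 2 from 102658239 to 102790784, is the transporter of mature astrocytes. It was at 10.9, 14.7 and 10.1 RPKM in NC and at 10.4, 10.3 and 6.99 RPKM in HE, and NC3 lay below HE1 and HE2. The log2 fold change was -0.37 (SE 0.21, interval -0.86 to 0.13), or -0.18 without HE3. Slc1a3 was 13.6 to 25.4 times as high as Slc1a2, with the highest ratio in HE3 and 13.6 to 17.0 in the other 5 samples.

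Aqp4 and Gja1 encode membrane channels. Aqp4, on chromosome 18 from 15389394 to 15410982, encodes the water channel of astrocyte end-feet. NC1 to NC3 had 37.5, 47.7 and 20.2 RPKM, and HE1 to HE3 had 31.4, 23.2 and 15.6 RPKM. NC3 lay below HE1 and HE2, so the groups overlapped widely. The log2 fold change of Aqp4 was -0.55 (SE 0.36, interval -1.40 to 0.30), -0.29 without HE3 and -0.91 without NC3. Gja1, on chromosome 10 from 56377300 to 56390419, encodes connexin 43, the main gap junction protein of astrocytes. It was at 68.5, 39.3 and 66.0 RPKM in NC and at 76.1, 52.0 and 49.5 RPKM in HE. The log2 fold change was 0.05 with an interval of -0.56 to 0.65, which leaves room for a difference in either direction. It was 0.16 without HE3 and turned negative without NC2 (-0.21), without HE1 (-0.15) and with sample weights (-0.08).

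**Figure D2:**
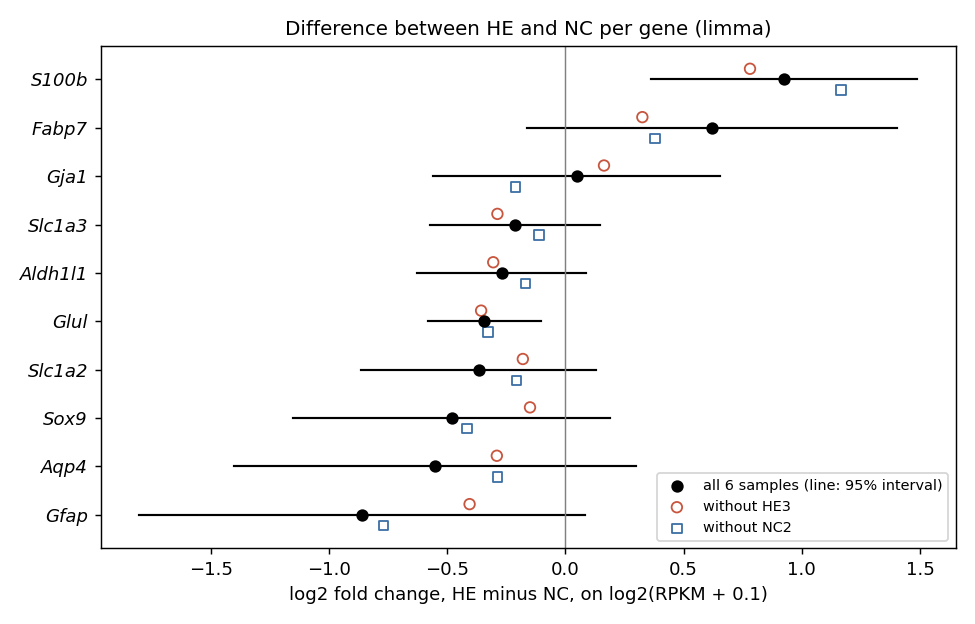
Log2 fold change of HE minus NC on log2(RPKM + 0.1) for each of the 10 genes, from limma, with black points for all 6 samples and lines for the 95% interval, red circles for the value without HE3 and blue squares for the value without NC2. Only the lines of S100b (0.36 to 1.49) and Glul (-0.58 to -0.11) stay on one side of 0, and the value of Gfap moves from -0.86 to -0.41 without HE3.

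Within the groups, single samples set much of the spread. NC2 had the highest level of 7 of the 10 genes, all but Fabp7, Gja1 and S100b, and the lowest level of Fabp7 and Gja1. HE3 had the lowest level of Gfap, Aqp4, Slc1a2 and Sox9 and the highest level of Fabp7 and S100b. Relative to the NC mean on the log2 scale, HE3 was at -1.77 for Gfap, -1.15 for Sox9, -1.07 for Aqp4 and -0.74 for Slc1a2, and at 1.21 for both Fabp7 and S100b. The same 6 values in HE1 were -0.03, -0.28, -0.07, -0.17, 0.42 and 0.90. Over the 10 genes the median deviation was -0.12 in HE1, -0.26 in HE2 and -0.26 in HE3, and between -0.17 and 0.19 in the NC samples. Over all tested genes HE3 had a median of -0.17, and HE1 and HE2 lay within 0.01 of 0.

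**Figure D3:**
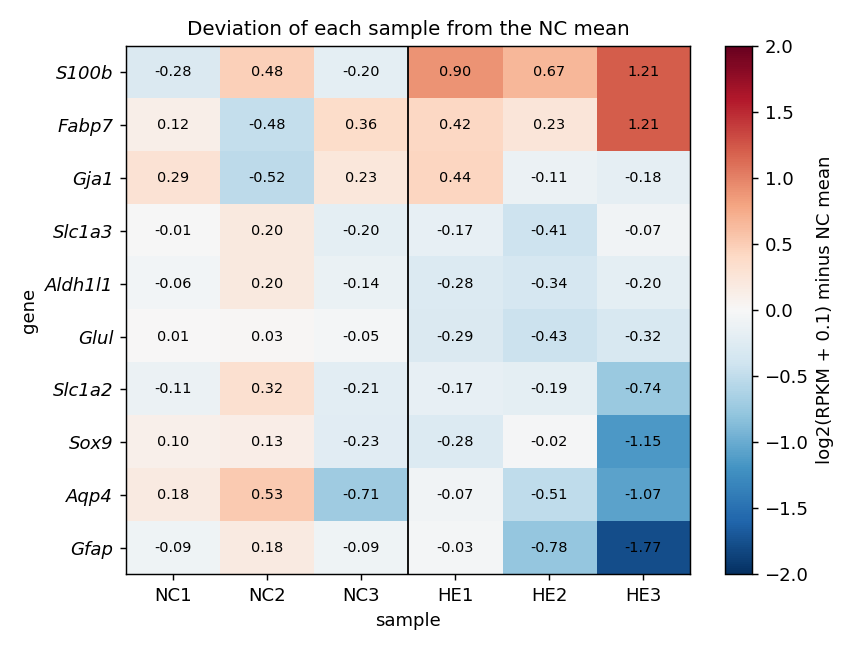
Log2(RPKM + 0.1) of each gene in each sample minus the mean of the 3 NC samples, with genes in rows ordered by their fold change, samples in columns, and red above and blue below the NC mean. HE3 carries the strongest colours, from -1.77 for Gfap to 1.21 for S100b and Fabp7, whereas Glul is faint but blue in all 3 HE samples.

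Levels of some of these genes varied together across the samples. Of the 45 pairs among the 10 genes, 25 had a Pearson r above 0 and 20 below 0 over the 6 samples, which share library depth and group, so the values are a description only. Slc1a3 and Aldh1l1 had the highest r, 0.91, followed by Aqp4 and Slc1a2 at 0.89 and Slc1a2 and Sox9 at 0.89. Fabp7 ran opposite to several of the others, with r of -0.99 to Slc1a2, -0.92 to Sox9, -0.88 to Aqp4 and -0.83 to Gfap, although it had r of 0.49 to S100b. The ratio of Gfap to Fabp7 was 0.558, 1.02 and 0.472 in NC1 to NC3 and 0.474, 0.320 and 0.0819 in HE1 to HE3. Only HE2 and HE3 had a ratio below every NC sample. Among the 11524 tested genes at a mean of at least 1 RPKM, those most like Gfap over the 6 samples were Fbxo32, Ints6 and Erbin (r of 0.999, 0.997 and 0.996). Fabp7 was most like Fam81a, Sorcs1 and Cdca7l (r of 0.996, 0.996 and 0.994), and Slc1a3 was most like Serpina3i, Urod and Ciao1 (r of 0.986, 0.984 and 0.982). No test is given for these values, which describe 6 samples only.

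Promoter windows from RefSeq (GRCm38.p6, 250 bases before to 50 bases after an annotated start) were taken for 8 of the 10 genes. No window was found for Sox9, and Aqp4 was left out and not searched. The window of Slc1a2, chr2:102706188-102706487, belongs to a start inside the gene and not to the outermost start given above. They were searched on both strands for 4 motifs, namely TTCNNNGAA of STAT factors, which act in astrocyte specification, TTGGC as the core of an NFI site, AGGTCA as 1 arm of an estrogen response element, and TGGGAA of RBPJ, the factor that Notch signals through. AGGTCA was in 5 of the 8 windows, those of Gfap, Slc1a2 (in the window inside the gene), Aldh1l1, Fabp7 and Glul, and in 16% of all 27025 windows. TTGGC was in 4 of the 8, Slc1a2 among them, against 47.0% of all windows, TGGGAA in 4 against 25.5%, and TTCNNNGAA in 2, Gfap and Slc1a3, against 8.47%. These are matches of letters and not measured binding. The windows of 4 genes are printed 5′ to 3′ on the strand of the gene, since S100b and Glul had the smallest p-values in opposite directions and Gfap and Fabp7 differed most in HE3. Capitals mark every match to a motif on either strand.
S100b: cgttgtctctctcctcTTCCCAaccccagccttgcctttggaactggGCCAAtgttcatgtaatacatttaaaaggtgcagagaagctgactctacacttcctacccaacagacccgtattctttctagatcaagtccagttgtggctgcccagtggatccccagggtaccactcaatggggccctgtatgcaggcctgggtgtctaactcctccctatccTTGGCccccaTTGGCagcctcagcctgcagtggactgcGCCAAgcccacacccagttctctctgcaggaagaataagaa
Glul: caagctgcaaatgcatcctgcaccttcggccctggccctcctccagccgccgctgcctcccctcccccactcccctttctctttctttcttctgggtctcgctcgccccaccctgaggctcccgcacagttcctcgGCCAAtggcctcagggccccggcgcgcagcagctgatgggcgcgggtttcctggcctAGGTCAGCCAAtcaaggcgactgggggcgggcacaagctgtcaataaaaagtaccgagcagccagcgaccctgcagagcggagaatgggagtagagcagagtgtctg
Gfap: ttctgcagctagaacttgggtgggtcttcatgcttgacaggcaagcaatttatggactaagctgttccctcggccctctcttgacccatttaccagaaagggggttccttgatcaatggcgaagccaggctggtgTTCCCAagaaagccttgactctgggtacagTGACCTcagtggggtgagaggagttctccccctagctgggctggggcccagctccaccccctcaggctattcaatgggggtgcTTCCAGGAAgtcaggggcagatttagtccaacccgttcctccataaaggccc
Fabp7: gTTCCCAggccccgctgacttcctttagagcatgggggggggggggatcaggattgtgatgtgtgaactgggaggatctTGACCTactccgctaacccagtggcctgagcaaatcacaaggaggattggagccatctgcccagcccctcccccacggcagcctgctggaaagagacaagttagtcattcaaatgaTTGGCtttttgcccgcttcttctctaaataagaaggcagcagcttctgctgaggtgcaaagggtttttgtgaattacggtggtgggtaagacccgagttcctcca

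The window of S100b lies at chr10:76253586-76253885 on the plus strand, that of Glul at chr1:153899679-153899978 on the plus strand, that of Gfap at chr11:102897151-102897450 on the minus strand and that of Fabp7 at chr10:57784673-57784972 on the plus strand. S100b holds 4 matches to the NFI core and no AGGTCA. Glul holds AGGTCA directly before 1 of its 2 NFI matches. Gfap holds the STAT letters starting 2 bases before the gene start, and Fabp7 holds 1 match each of AGGTCA, the NFI core and the RBPJ letters. AGGTCA thus occurs in genes that were higher and in genes that were lower in HE, and no relation to the fold changes was tested.

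Gene family relatives of the 10 were compared from a list of 33, of which 32 were tested. At an unadjusted p under 0.05, 4 were higher in HE and 0 lower, or 12.5% of those tested against 20.5% of all tested genes. Fabp5, an epidermal fatty acid-binding protein that progenitors also carry, was at 138, 174 and 202 RPKM in NC and at 360, 335 and 464 RPKM in HE. Each HE value was well above each NC value, and the log2 fold change of 1.17 (SE 0.19) became 1.04 without HE3, with an adjusted p of 0.195 in limma. Fabp3, the heart-type relative, was at 37.7, 18.98 and 53.6 RPKM in NC and at 41.0, 14.0 and 12.8 RPKM in HE. The connexin genes Gjb6 (connexin 30) and Gjb2 (connexin 26) were higher in every HE sample, although both were at low levels. Gjb6 was at 0.305, 0.507 and 0.209 RPKM in NC and at 1.65, 0.878 and 1.15 RPKM in HE, and Gjb2 at 0.509, 0.282 and 0.263 against 1.39, 1.26 and 1.01 RPKM. Their log2 fold changes were 1.60 (SE 0.33) and 1.58 (SE 0.27), each with an adjusted p of 0.195 in limma, and fell to 0.72 for both on log2(RPKM + 1). The other SoxE genes, Sox8 and Sox10, are genes of the oligodendrocyte lineage. Sox8 was at 34.8 to 39.4 RPKM in NC and 49.8, 59.8 and 26.6 RPKM in HE, and Sox10 at 13.04 to 15.4 RPKM in NC and 16.5, 13.1 and 1.65 RPKM in HE, so that in both HE3 was the lowest sample, as it was for Sox9.

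**Figure D4:**
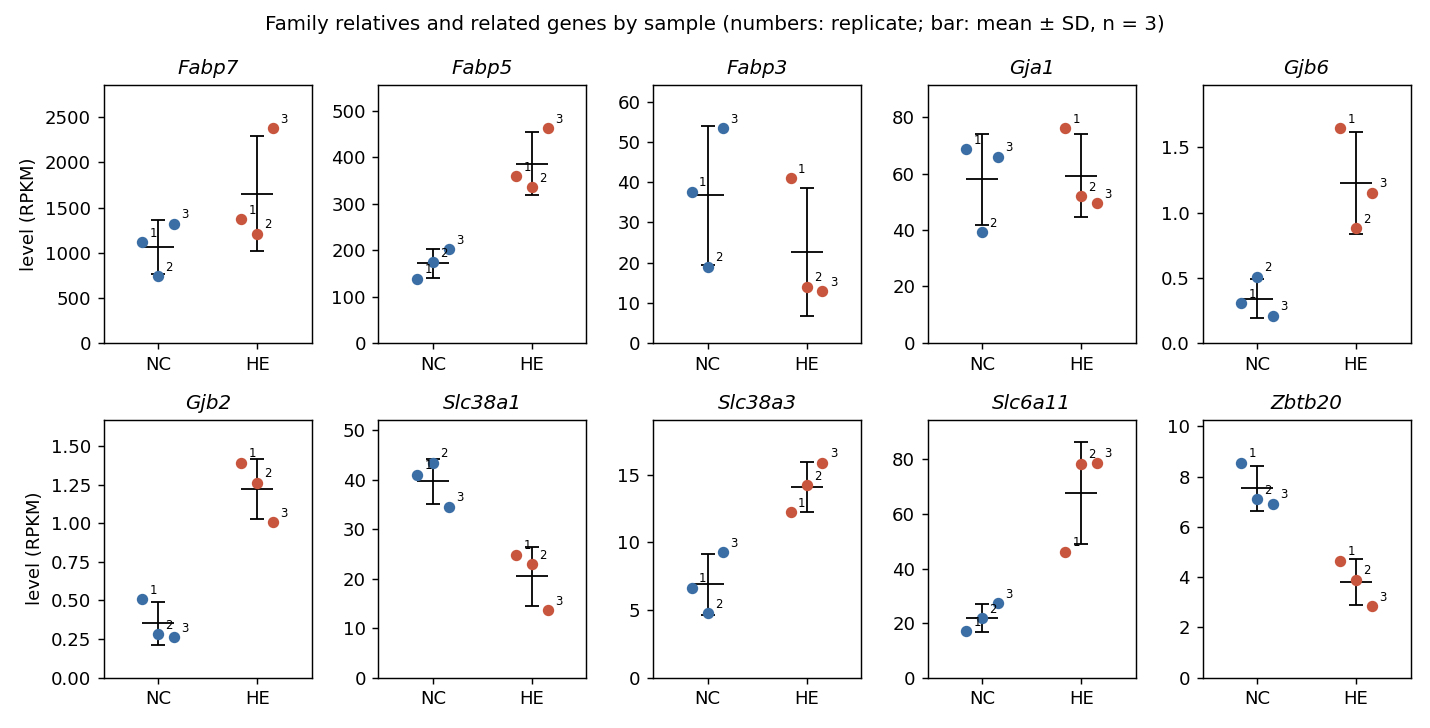
Level in RPKM on a linear axis from 0 by sample for fatty acid-binding protein and connexin genes and for 4 genes of related lists, drawn as blue NC and red HE points with replicate numbers and bars for the mean ± SD of 3 samples. In Fabp5, Gjb6, Gjb2, Slc38a3 and Slc6a11 all HE points lie above all NC points, in Slc38a1 and Zbtb20 all lie below, and in Fabp7, Fabp3 and Gja1 the groups overlap.

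Among 30 further astrocyte genes, all tested, 6 were higher and 3 lower in HE at an unadjusted p under 0.05, and 0 were called. The share at this p was 30% of the list, against 20.5% of all tested genes. The median log2 fold change was -0.07. Among the 6 that were higher were Slc6a11, the GABA transporter GAT-3, Slc38a3, a glutamine transporter, Gjb6, Sparcl1, a secreted matrix protein, and Acsbg1, an acyl-CoA synthetase. Slc6a11 was at 16.9, 21.8 and 27.2 RPKM in NC and at 46.1, 78.4 and 78.8 RPKM in HE, a log2 fold change of 1.60 (SE 0.26, limma adjusted p = 0.195), or 1.48 without HE3. The 3 that were lower were Apoe, the apolipoprotein of astrocytes, Htra1, a secreted protease, and Ttyh1, a channel protein of radial glia. Apoe had the highest mean level of the list, at 2919, 4034 and 2741 RPKM in NC and at 2637, 1900 and 1072 RPKM in HE. HE1 was just below the NC range, and the log2 fold change was -0.86 (SE 0.37, limma adjusted p = 0.244), or -0.51 without HE3. Htra1 had a log2 fold change of -0.63 (SE 0.19).

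Of 21 other radial glia genes, all tested, 2 were higher and 1 lower at an unadjusted p under 0.05, with a median of -0.06. The share at this p was 14.3% of the list, against 20.5% of all tested genes. Lifr, the receptor for leukemia inhibitory factor, was at 4.11, 5.26 and 4.31 RPKM in NC and at 6.80, 8.29 and 9.27 RPKM in HE (log2 fold change 0.82, SE 0.17, limma adjusted p = 0.195), and Phgdh, an enzyme of serine synthesis, had a log2 fold change of 0.74, or 0.37 without HE3. Prom1, which encodes the progenitor surface protein prominin, was lower, with a log2 fold change of -0.87 (SE 0.28), or -0.56 without HE3. Sox2 was also below NC in every HE sample, with a log2 fold change of -0.51, or -0.23 without HE3. Of 12 tanycyte genes 9 were tested, and 1 was higher and 2 were lower at an unadjusted p under 0.05 (33.3% of those tested). Dio2, which activates thyroid hormone, was at 3.65, 0.809 and 2.91 RPKM in NC and at 1.10, 0.415 and 0.235 RPKM in HE, with a log2 fold change of -1.88 although NC2 lay below HE1. Frzb, a secreted Wnt inhibitor, had a log2 fold change of 0.78 at under 1.28 RPKM.

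Genes of a list of gliogenic factors were lower more often than higher. The list is not limited to astrocytes, since it also holds Sox8, Sox10 and general signaling genes such as Jak1 and Smad4. Of the 21 in this list, which includes Sox9, 17 had a log2 fold change below 0 and 4 above (56.2% of all tested genes were below 0), 7 were lower and 0 higher at an unadjusted p under 0.05, and 0 were called. In 10 of them all HE values lay below all NC values, where 32.7% of all tested genes did not overlap in either direction. The median was -0.45, and -0.16 without HE3, where 6 were lower and 1 was higher at an unadjusted p under 0.05. The 7 lower factors became 3 without NC1, 3 without NC2 and 11 without HE2, while the share of all tested genes at this p went from 20.5% to 9.62%, 11.7% and 20.5%. Zbtb20, a zinc finger factor that promotes astrocyte formation, was at 8.56, 7.11 and 6.93 RPKM in NC and at 4.65, 3.91 and 2.84 RPKM in HE. Its log2 fold change was -0.99 (SE 0.20, limma adjusted p = 0.195), or -0.80 without HE3. Stat3, which relays gliogenic cytokines, was the most abundant of the list, at 62.2, 79.3 and 60.3 RPKM in NC and at 52.3, 55.6 and 41.9 RPKM in HE (log2 fold change -0.43, SE 0.16). Nfia, an NFI factor that starts gliogenesis, had a log2 fold change of -0.47 (SE 0.15), Cntfr, a cytokine receptor that signals to Stat3, of -0.80 (SE 0.27), and Notch1 of -0.56 (SE 0.20). Without HE3, Cntfr was at -0.49 and Notch1 at -0.36. Among those higher, Smad5 had the lowest p, with a log2 fold change of 0.18.

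Beyond Slc1a2, Slc1a3 and Glul, the list of glutamate and glutamine handling held 18 genes, and 19 of its 21 were tested. At an unadjusted p under 0.05, 2 were higher and 4 lower in HE, Glul among the latter, with a median of -0.11 over the list. The share at this p was 31.6% of those tested, against 20.5% of all tested genes. The glutamine transporters of the Slc38 family went both ways. Slc38a1 was at 41.0, 43.5 and 34.6 RPKM in NC and at 24.8, 22.9 and 13.7 RPKM in HE, a log2 fold change of -0.99 (SE 0.23, limma adjusted p = 0.195), and Slc38a2 had a log2 fold change of -0.83 (SE 0.27), or -0.50 without HE3. Slc38a3, the transporter most tied to astrocytes, was instead at 6.65, 4.78 and 9.29 RPKM in NC and at 12.2, 14.2 and 15.9 RPKM in HE, a log2 fold change of 1.06 (SE 0.24, limma adjusted p = 0.195). Gad2, an enzyme that makes GABA from glutamate, was at 3.65, 2.46 and 2.21 RPKM in NC and at 1.42, 1.21 and 1.30 RPKM in HE (log2 fold change -0.997, SE 0.22).

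Genes of a list that astrocytes raise when they become reactive were mostly lower in HE, but the NC samples differed among themselves. The list is not limited to astrocytes, since it also holds interferon-induced genes such as Gbp2. Of 24 listed, 23 were tested, 19 had a log2 fold change below 0, 11 were lower and 1 was higher at an unadjusted p under 0.05, and 0 were called. Among all tested genes 56.2% were below 0 and 20.5% had an unadjusted p under 0.05. The median was -0.88, and -0.84 without HE3. Lcn2, a secreted lipocalin, was at 93.0 and 119 RPKM in NC1 and NC2 but at 4.47 RPKM in NC3, next to 3.43, 1.46 and 5.52 RPKM in HE. Gbp2, an interferon-induced GTPase, was at 99.0 and 193 RPKM in NC1 and NC2, at 13.2 RPKM in NC3 and at 12.1, 5.17 and 5.66 RPKM in HE. Without NC3, 6 genes of this list were called and 14 were lower at an unadjusted p under 0.05, and the lower genes numbered 6 without NC1 and 5 without NC2. The share of all tested genes at this p was 16.5% without NC3, 9.62% without NC1 and 11.7% without NC2, so the counts of the whole table moved as well. Calls without NC3 numbered 103 of all 13952 tested genes, 7 higher and 96 lower in HE. Serpina3n, the most abundant, was at 643, 1050 and 423 RPKM in NC and at 487, 279 and 270 RPKM in HE. S1pr3, a lipid receptor, had the lowest p of the list, at 135, 162 and 63.0 RPKM in NC and 42.0, 23.2 and 22.9 RPKM in HE (log2 fold change -1.98, SE 0.39, limma adjusted p = 0.195). Cd44, a hyaluronan receptor, was at 56.6, 62.7 and 44.2 RPKM in NC and at 38.2, 25.3 and 28.4 RPKM in HE. S100a10, an annexin partner and relative of S100b, was the gene that was higher, with a log2 fold change of 0.45 (SE 0.17). Gfap, itself a gene of the reactive state, was highest in NC2 as well, but lay at 624 RPKM in both NC1 and NC3.

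**Figure D5:**
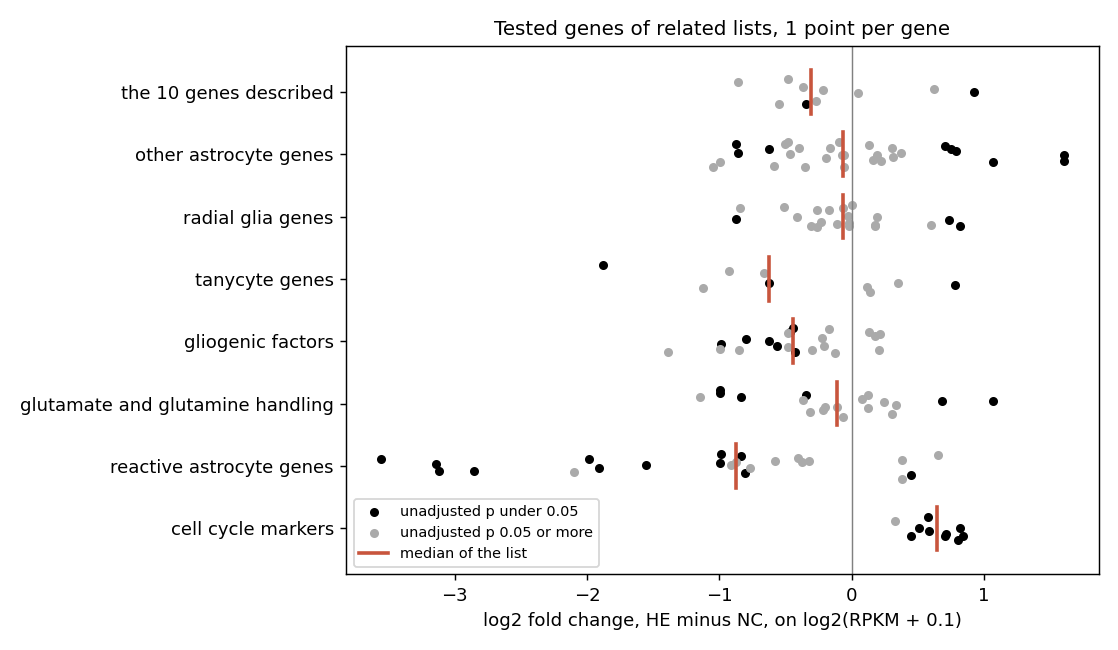
Log2 fold change of HE minus NC on log2(RPKM + 0.1) for the tested genes of 8 lists, 1 point per gene, black where the unadjusted p was under 0.05 and grey otherwise, with a red bar at the median of each list. The bars lie at -0.31 for the 10 genes described, -0.88 for reactive astrocyte genes and 0.64 for cell cycle markers.

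Markers of other states and cell types moved with the groups to different degrees, and their part in the results above was not tested. Of 10 cell cycle genes 10 had a log2 fold change above 0, with a median of 0.64 (0.45 without HE3). At an unadjusted p under 0.05 there were 9, or 90% against 20.5% of all tested genes. Their summed level was 221 to 300 RPKM in NC and 350 to 541 RPKM in HE, highest in HE3. The paper, in contrast, measured lower proliferation of HE cells by BrdU labeling, neurosphere number and size, and cell number. These RNA levels are not a measure of cell division. Pcna, the replication clamp, was at 57.9, 45.2 and 61.8 RPKM in NC and at 81.0, 79.3 and 134 RPKM in HE, an order of samples close to that of Fabp7. The 12 neuronal markers summed to 124 to 157 RPKM in NC and 142 to 280 RPKM in HE, the highest sum including 202 RPKM of Gap43 in HE3, although 7 of the 12 had a log2 fold change below 0 and the median was -0.08. The 12 markers of the oligodendrocyte lineage summed to 317 to 357 and 356 to 517 RPKM, most of it Olig1 and Olig2. Of the 11 tested, 9 had a log2 fold change below 0 with a median of -0.32, and 3 did without HE3, where the median was 0.14. The 8 ependymal markers summed to 64.1 to 85.3 RPKM in NC and 36.3 to 73.1 RPKM in HE, with 0 of 8 higher. The 8 mesenchymal markers summed to 32.6 to 94.0 RPKM in NC and 78.4 to 168 RPKM in HE, with 7 of 7 tested higher. Markers of microglia and endothelial cells were at low levels. The 10 microglial markers summed to 1.11 to 1.51 RPKM in NC and 2.79 to 8.68 RPKM in HE and the 8 endothelial markers to 2.79 to 3.81 and 4.67 to 6.20 RPKM. C1qa, a complement gene of microglia, was at 0 in NC1 and NC2 and reached 3.17 RPKM in HE3.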

How the data were processed

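Per the labels and the methods of the study, the authors filtered reads, aligned them with TopHat2 to mm10 and counted them per gene. The counting tool, annotation and use of strand are not given in the sources used here. The deposited table holds raw read counts, and next to them RPKM, which follows from count, gene length and library total (checked, largest difference 4.99e-07). The count cells carry commas between digits and were therefore recorded under another unit than counts. RPKM was tested on the log2(RPKM + 0.1) scale by limma 3.58.1 (R 4.3.3, trended variance), with group as the only term and Benjamini-Hochberg adjustment over all tested genes. The read counts served the filter, the depth and limma's voom, which is an alternative. The filter asked for 15 reads over the 6 samples and, in 3 or more of them, a rate equal to 10 reads at median depth, and kept 13952 of 22048 genes. Symbols matched 21781 identifiers. The procedure was tested on simulated data that held no outlying sample such as HE3. The only requirement was that the median estimated fold change lay near the true one, so the count of calls was not tested.

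At the depth of 16078675 to 19137059 reads, a single read per kilobase of gene amounts to 0.0523 to 0.0622 RPKM. No 2 samples held identical counts. Whether samples of a group came from separate litters is not stated, and p-values measure the spread between these samples. Since the use of strand in counting is not stated, overlapping genes could share reads, as for Aqp4, Slc1a2, Aldh1l1 and Glul, each of which overlaps an annotated noncoding RNA. The 10 genes and all gene lists were chosen with earlier results of these data known. From each related list the text names the gene of highest mean level and those of lowest p in each direction, and the 3 genes most like Gfap, Fabp7 and Slc1a3. The other genes named from the lists were chosen after their values were seen. Some results for single genes of these lists are not reported here. Alternatives were a pseudocount of 1, median-of-ratios scaling, other filters, the replicate number as a block, voom, sample weights and each sample left out.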

Additional observations from a re-analysis of the deposited data

How the results depend on the processing

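Over 14 alternatives, none of the 10 genes was called, and 137 of 140 fold changes kept their direction. The exceptions were those of Gja1, at -0.084 with sample weights and from -0.21 (without NC2) to 0.19 (without NC1) with each sample left out, below 0 also without HE1 (-0.15). Over all genes, sample weights gave 268 calls and leaving out each sample in turn gave 0 to 103, the calls being made without NC3. With sample weights, where HE3 had a weight of 0.158 against 0.852 to 2.87 for the others, the adjusted p in limma was 0.0409 for S100b and 0.0389 for Glul, both under a log2 fold change of 1 in size, and over all alternatives it ran up to 0.502 for each. The count of the 10 genes at an unadjusted p under 0.05 was 1 with median-of-ratios scaling, 1 with voom and median-of-ratios factors (S100b in both), 5 with sample weights, and 2 to 3 with each sample left out, where the share of all tested genes was 20.7%, 21%, 29.5% and 9.62% (without NC1) to 22.3% (without HE1), in this order. The count with groups that do not overlap was 3 to 8 with each sample left out, 8 without NC3 and 5 without HE2. The share of all tested genes without overlap was not computed for these settings. Groups with fewer samples separate more easily for any gene, so these counts cannot be read as particular to the 10. The median of the 10 stayed between -0.35 and -0.21.

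The replicate numbers of the labels were not taken to pair samples, since deviations from the group means correlated at 0.156, 0.0869 and 0.0603 within numbers, although every sample correlated best with its own number, which is a hint from the data and not from the design. With the replicate block, 6 of the 10 genes had an unadjusted p under 0.05 (Gfap, S100b, Aqp4, Fabp7, Glul and Sox9), where 22.8% of all tested genes did, and 0 genes were called.

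The same alternatives for related lists were added after seeing the data, and of 572 fold changes 564 kept their direction. Nes, at -0.02 in the report's fit, had 0.044 with median-of-ratios scaling, 0.051 with voom and these factors and -0.23 (without HE3) to 0.11 (without HE1) with each sample left out. Over the samples left out, Sox8 ran from -0.025 (without HE2) to 0.56 (without HE3) and Sox10 from -1.59 (without HE1) to 0.034 (without HE3). With 3 samples a group, differences of the size seen for Slc1a3 or Gja1 could not be told from 0, and fold changes of genes under 1 RPKM depend on the pseudocount.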
